A study of Mus musculus with 36 samples.

Results

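The 34 genes described here encode the enzymes that activate fatty acids, carry them into mitochondria and break them down by beta-oxidation. They were taken as a fixed list of gene symbols from a table of 17873 mouse genes with a value. The list was chosen with earlier results of these data known, so shares of all genes beside its counts are descriptive. All 34 had a value in each of the 36 libraries, and all 34 passed the filter on low signals that kept 13404 genes for testing.

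A fatty acid is first joined to coenzyme A by an acyl-CoA synthetase. The long-chain acyl group is then passed to carnitine, crosses the inner mitochondrial membrane and is passed back to coenzyme A, and malonyl-CoA blocks the entry step. Inside, each round of beta-oxidation uses an acyl-CoA dehydrogenase, a hydratase, a hydroxyacyl-CoA dehydrogenase and a thiolase, and the electrons of the first step leave through the electron transfer flavoprotein. Oxidative muscle fibres rely on this pathway, and the estrogen-related receptors (ERRs) are nuclear receptors known to bind and regulate many of its genes.

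The libraries came from soleus, a slow oxidative muscle, and from extensor digitorum longus (EDL), a fast muscle, of male mice aged 1 year on a C57BL/6JBom background. Floxed ERR alleles were deleted with a Cre recombinase driven by the human alpha-skeletal actin (HSA) promoter, which acts in muscle fibres, so that other cells of the muscle keep the receptors. Animals labelled mKO carried the ERRalpha deletion, and animals labelled dmKO carried either the ERRbeta and ERRgamma or the ERRalpha and ERRgamma deletions. Each of these 3 classes had its own littermates labelled wild type (WT), giving 12 groups of 3 libraries, with some animals giving both muscles. Column marks of the wild-type libraries were read as floxed without Cre. The presence of Cre and the deletion therefore cannot be told apart.

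The values are log2 signals that the authors quantile normalized, so read depth cannot be known. As a stand-in, 13667 to 14951 genes were detected per library. In the ERRalpha/ERRgamma class every dmKO library had more than any wild-type library of the same muscle. The counts were 14379, 14425 and 14835 in EDL dmKO against 14033, 14376 and 14319 in wild type. In soleus they were 14862, 14751 and 14951 against 14624, 14316 and 14507. In the other classes the counts overlapped. The part of detection in the lower signals of the ERRalpha/ERRgamma class was not tested. Which columns are knockouts was read from marks in their names, and "knockout-labelled" is used for that reason. The receptor genes did not check every label: Esrra (ERRalpha) fell by 2.23 in EDL and by 0.57 in soleus of the ERRalpha/ERRgamma class but differed by -0.19 and 0.33 in the ERRalpha class, neither called. Esrrb (ERRbeta) differed by -0.18 in EDL and 0.28 in soleus of the ERRbeta/ERRgamma class, neither called, and fell by 1.6 in EDL of the ERRalpha/ERRgamma class, where it was not a target. Esrrg (ERRgamma) rose in 4 comparisons: by 1.09 in ERRbeta/ERRgamma dmKO soleus, by 1.21 in ERRalpha/ERRgamma dmKO soleus, by 0.51 in ERRalpha/ERRgamma dmKO EDL and by 0.61 in EDL of the ERRalpha class. The table gives 1 signal per gene, so the floxed exons themselves were not measured. Because whole muscles were profiled, fewer cells of a type and less RNA per cell cannot be told apart.

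The 3 promoter stretches are shown because they bear on how ERRs could meet these genes: ERRs bind as monomers to TCAAGGTCA, whose core is AAGGTCA. Of the 34 genes, 28 had a RefSeq promoter on GRCm38.p6, with 31 windows in all, each from 250 bases before to 50 bases after the annotated start. The core AAGGTCA, searched on both strands, lay in 3 of the 31 windows (9.68%), against 4.72% of 32851 windows of the same length over all genes. The full TCAAGGTCA, which contains the core, lay in 1 member window (3.23%) against 0.423% of all windows, and the direct repeat of AGGTCA with 1 base between, bound by peroxisome proliferator-activated receptors, lay in 0 member windows against 0.0396%. The 3 genes with the core were Acadm at -249 to -243, Acsl6 at -189 to -183 and again at -167 to -161 inside a full match, and Acacb at 43 to 49 after the start of its window's transcript. That Acacb window (chr5:114165268-114165567) lies inside the gene, which is annotated from 114146321 to 114250761. Further Acsl6 windows, beginning at chr11:54303954 and chr11:54314653, held no match. Printed 5′ to 3′ on the strand of each gene, the 250 bases before the start are given for Acadm (chr3:153944644-153944893, minus strand) and Acsl6 (chr11:54303574-54303823, plus strand), with matches in capitals, which read TGACCTT or TGACCTTGA because they lie on the opposite strand. The third stretch, before Hadhb (chr5:30155003-30155252, plus strand), lies in the 272 bases that separate Hadhb from Hadha, the 2 subunit genes of one enzyme that face away from each other, and holds no match.
Acadm: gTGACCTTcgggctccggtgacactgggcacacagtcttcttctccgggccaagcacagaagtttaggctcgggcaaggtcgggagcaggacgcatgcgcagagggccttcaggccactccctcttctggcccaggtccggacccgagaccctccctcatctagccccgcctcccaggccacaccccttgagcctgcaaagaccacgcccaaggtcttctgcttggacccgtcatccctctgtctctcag
Acsl6: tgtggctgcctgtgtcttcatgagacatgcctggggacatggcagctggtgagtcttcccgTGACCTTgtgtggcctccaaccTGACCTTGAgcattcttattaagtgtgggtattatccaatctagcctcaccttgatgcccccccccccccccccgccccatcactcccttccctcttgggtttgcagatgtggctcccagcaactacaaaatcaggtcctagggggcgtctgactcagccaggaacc
Hadhb: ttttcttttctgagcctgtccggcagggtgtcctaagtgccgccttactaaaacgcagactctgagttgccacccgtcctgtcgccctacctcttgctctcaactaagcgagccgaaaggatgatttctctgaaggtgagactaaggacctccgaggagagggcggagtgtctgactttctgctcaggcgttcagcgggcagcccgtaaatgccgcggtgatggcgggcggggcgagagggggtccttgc
A match describes letters in these windows and not a bound site, and a window without one says nothing of binding elsewhere. Windows for Acaa2, Decr1, Cpt1b, Crat, Acad9 and Acot13 were not analysed here.

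In wild-type muscle, most of the pathway was higher in soleus than in EDL. Over 9 wild-type libraries of each muscle, 29 of the 34 genes were higher in soleus and 3 were lower (limma, adjusted p under 0.05), against 55.5% of all genes in either direction, 31.4% up and 24.1% down. The median difference over the 34 genes was 0.74 on the log2 scale, and for 21 genes the 9 soleus libraries all lay above the 9 EDL libraries, against 9.00% of all genes, while 1 lay wholly below, against 8.96%. Crat and Acsl3 were no longer called once libraries were recentred.

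The widest gap was in Acss1, which activates acetate in the mitochondrial matrix. Its log2 signal ran from 1.66 through a median of 2.19 to 3.15 in EDL and from 4.43 through 4.72 to 5.33 in soleus, which do not overlap, a difference of 2.48 ± 0.14 (SE, n = 9 each) or 5.6-fold. Acsl1, the main long-chain acyl-CoA synthetase of muscle, ran from 4.87 through 5.32 to 5.71 in EDL and from 6.54 through 6.60 to 6.88 in soleus (1.40 ± 0.10). Acsl6, a synthetase with a preference for long polyunsaturated chains, went the other way, from 2.25 through 2.54 to 2.73 in EDL and from 1.36 through 1.55 to 1.82 in soleus (-0.95 ± 0.07). Acsl1 was therefore higher and Acsl6 lower in every soleus library than in any EDL library, and Acsl4, which prefers arachidonic acid, was lower in soleus by 0.39 with overlapping libraries.

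Every gene of the carnitine shuttle was higher in soleus. Cpt1b, the muscle form of the malonyl-CoA-sensitive carnitine palmitoyltransferase, ran from 6.25 through 6.42 to 6.66 in EDL and from 7.12 through 7.28 to 7.64 in soleus (0.87 ± 0.08). Cpt1a, the liver form of the same enzyme, ran from 0.35 through 0.75 to 1.09 in EDL and from 0.96 through 1.40 to 1.77 in soleus (0.67 ± 0.13), with overlap. Cpt2, which returns the acyl group to coenzyme A on the inner side, was 1.09 ± 0.07 higher without overlap, whereas Crat, which acts on acetyl and other short chains, differed by 0.14 ± 0.06.

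All 6 genes of the hydratase, hydroxyacyl dehydrogenase and thiolase steps were higher in soleus. Hadhb, the thiolase subunit of the trifunctional protein, ran from 6.12 through 6.34 to 6.61 in EDL and from 7.54 through 7.70 to 8.00 in soleus (1.38 ± 0.08). Acaa2, the matrix 3-ketoacyl-CoA thiolase, ran from 6.21 through 6.45 to 6.82 and from 7.71 through 7.83 to 7.93 (1.32 ± 0.07). In both genes the lowest soleus library exceeded the highest EDL library. The acyl-CoA dehydrogenases were split: Acadvl, Acadl, Acadm and Acads, which take very long, long, medium and short chains, were 0.73 to 0.98 higher in soleus and Acad12 0.45 higher. Acad9, which also helps assemble respiratory complex I, was lower by 0.13, and Acad10 and Acad11 were not called. The thioesterase Acot2, which splits acyl-CoA in the matrix, was 1.77 ± 0.25 higher, running from 2.40 through 3.14 to 4.24 in EDL and from 3.71 through 4.85 to 5.50 in soleus.

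**Figure D1:**
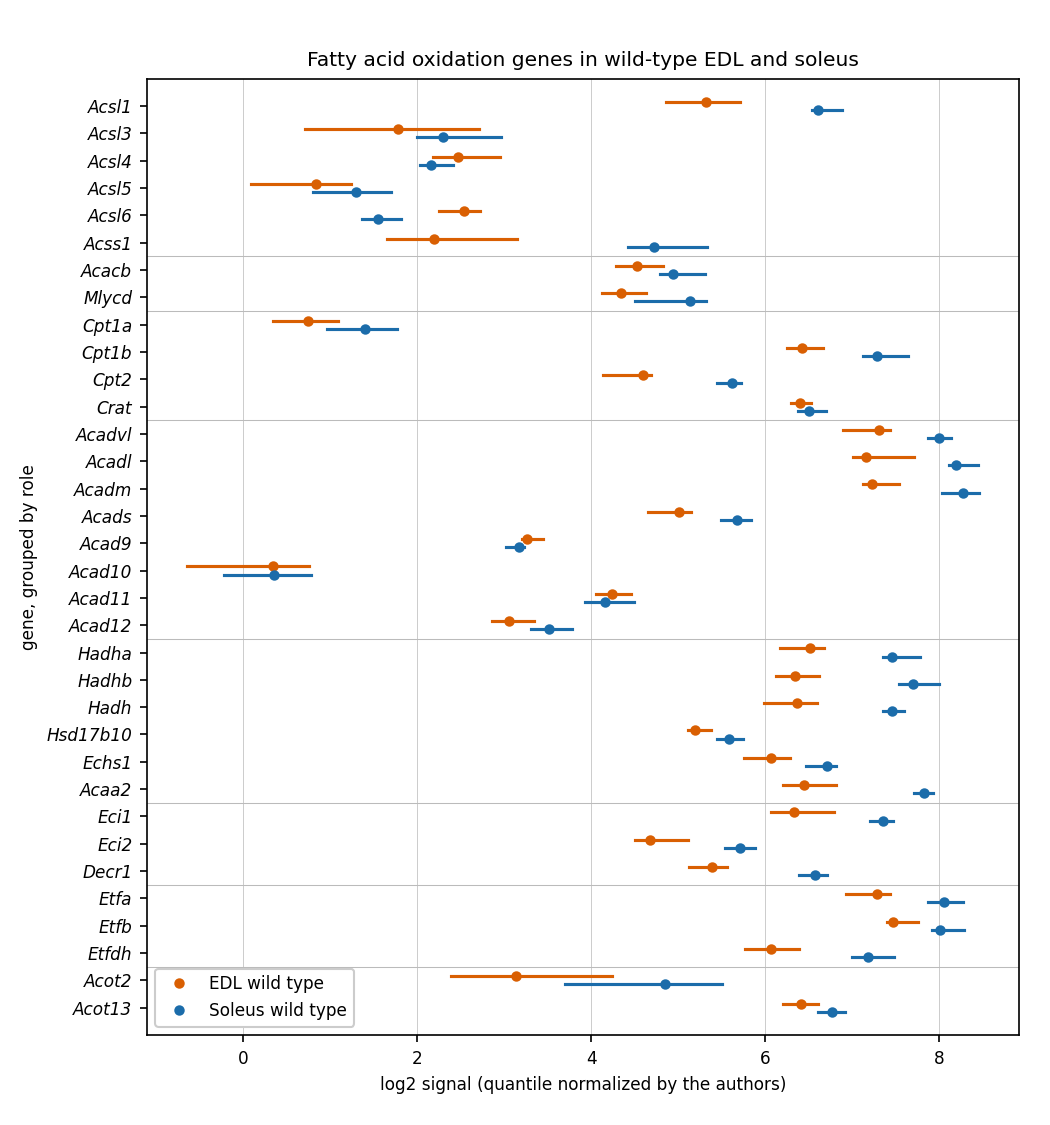
Log2 signal (horizontal axis, quantile normalized by the authors) of the 34 genes, grouped by role, in wild-type muscle; points are medians and bars run from the lowest to the highest of 9 libraries per muscle. Soleus bars lie wholly to the right of EDL bars for 21 genes, with Acss1 the farthest apart, and wholly to the left for Acsl6. Levels are not compared between genes.

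Signals were lower through much of the pathway in EDL of the ERRalpha/ERRgamma class. There, 22 of the 34 genes fell and 0 rose, where 18.3% of all genes were called and 7.02% were called lower. The median change over the 34 genes was -0.70, while the median over all genes tested was 0.12, and for 26 of the 34 all 3 knockout-labelled libraries lay below all 3 wild-type libraries (11.6% of all genes). In soleus of the same class 22 fell and 0 rose (12.8% of all genes called, 5.91% lower), with a median of -0.64 and 25 genes without overlap on the lower side (10.6% of all genes).

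In soleus of the ERRbeta/ERRgamma class 25 of the 34 genes fell and 0 rose (6.78% of all genes called, 3.58% lower), with a median of -0.59. For 25 all dmKO libraries lay below all wild-type libraries (8.86% of all genes) and for 0 above (9.13%). These calls rest on the spread shared over all 36 libraries. Fitted with the 6 libraries of this comparison alone, only Acaa2 was called among the 34 (adjusted p = 0.0466 by limma). In that fit 26 of the 34 were at an unadjusted p under 0.05. In the fit of all libraries 27 were, against 2830 of 13254 genes. In that group the dmKO library numbered 1 was the lowest of the 3 for 30 of the 34 genes. Its summed log2 signal of leukocyte markers was 5.89, against 1.98 and 3.37 in the other dmKO libraries and 1.63 to 3.30 in wild type, and 0 of 5 leukocyte markers tested were called. Without that library 18 of the 34 genes fell, and the part of leukocyte RNA in the difference was not tested. Single libraries also stood lowest for most members in the other class named for ERRgamma: wild-type EDL library 1 for 29 of the 34 genes and soleus dmKO library 1 for 28. Leaving each out gave 25 and 18 called genes.

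The same genes recurred across these 3 comparisons. There were 18 genes that fell in all of them: Acacb, Cpt2, Acadvl, Acadl, Acadm, Acad11, Hadha, Hadhb, Hadh, Echs1, Acaa2, Eci1, Eci2, Decr1, Etfa, Etfb, Etfdh and Acot13. Acsl1, Cpt1b, Acads, Acad9 and Hsd17b10 fell in 2 of the 3, Acss1, Mlycd, Crat, Acad12 and Acot2 in 1, and Acsl3, Acsl4, Acsl5, Acsl6, Cpt1a and Acad10 in none. Of the 22 genes that fell in EDL and the 22 that fell in soleus of the ERRalpha/ERRgamma class, 20 were shared (90.9% of each). Over all genes called lower in the same 2 comparisons, 561 were shared, which is 60.5% of those in EDL and 71.8% of those in soleus, and 180 of 13041 genes tested in all 3 comparisons (1.38%) were lower in each. The difference between these shares and those of the 34 genes was not tested.

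**Figure D2:**
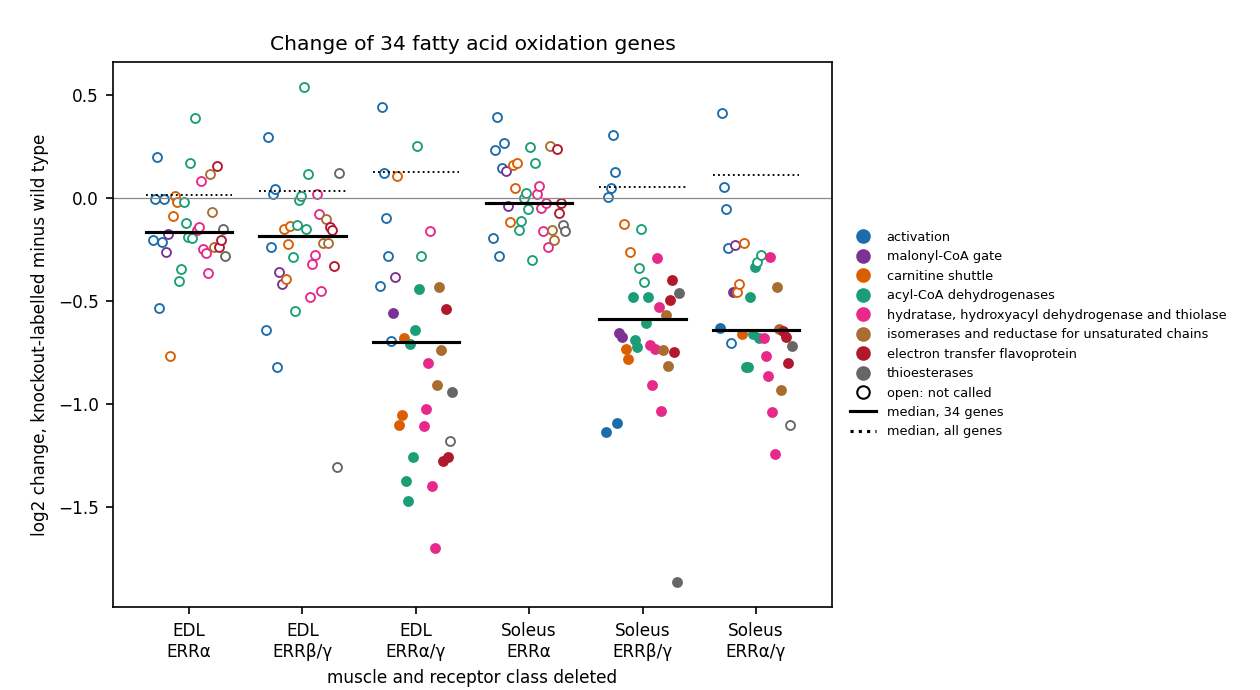
Log2 change (vertical axis, knockout-labelled minus wild type) of each of the 34 genes in the 6 comparisons; colours give the role, filled points were called at an adjusted p under 0.05 by limma, solid lines are medians of the 34 genes and dotted lines medians of all genes tested. Filled points appear in 3 comparisons, EDL ERRalpha/ERRgamma (22), soleus ERRbeta/ERRgamma (25) and soleus ERRalpha/ERRgamma (22), and all lie below 0.

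Of the 6 activation genes, few fell. Acsl1 (chromosome 8, 46471037 to 46536051) fell in both soleus comparisons. In the ERRbeta/ERRgamma class its 3 wild-type soleus libraries were 6.88, 6.56 and 6.84 and its dmKO libraries 5.29, 5.77 and 5.81, with no overlap, a change of -1.14 ± 0.17 (SE, n = 3 each, adjusted p = 8.66e-05). In the ERRalpha/ERRgamma class it went from 6.60, 6.54 and 6.58 to 5.80, 5.85 and 6.18, again without overlap (-0.63 ± 0.17). In EDL of that class the values of 5.01, 5.23 and 5.56 in wild type and 4.47, 4.94 and 5.13 in dmKO overlapped, and the change of -0.42 was not called, although it was after recentring and without wild-type library 1 or dmKO library 3 (-0.55 and -0.57).

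Acss1 fell in soleus of the ERRbeta/ERRgamma class, from 4.87, 4.63 and 4.43 to 3.38, 3.55 and 3.72 without overlap (-1.09 ± 0.25, adjusted p = 0.00632). In the ERRalpha/ERRgamma class its changes of -0.69 in EDL and -0.71 in soleus were not called (adjusted p = 0.0514 and 0.06 by limma), but both were after recentring or with the stricter filter. Without wild-type library 1 of each muscle they were -1.01 and -0.90, both called. Acsl3, Acsl4, Acsl5 and Acsl6 were called in none of the 6 knockout comparisons, although without dmKO library 2 Acsl5 was higher in soleus of the ERRbeta/ERRgamma class (0.71, adjusted p = 0.0366 by limma). Acsl3, whose product sits on lipid droplets and the endoplasmic reticulum, had the highest change of the 34 genes in both muscles of the ERRalpha/ERRgamma class (0.44 in EDL and 0.41 in soleus). The EDL libraries were spread widely, with 2.72, 1.71 and 0.72 in wild type and 2.37, 2.50 and 1.59 in dmKO. Without wild-type library 1, the highest, the change was 0.94 and was called (adjusted p = 0.0256 by limma). Acsl3 was called under no other setting there, and the lowest wild-type library, numbered 3, pulled the change up. In soleus its dmKO libraries (2.46, 2.73 and 2.54) all exceeded wild type (2.20, 2.29 and 2.00), although the test did not call it.

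Acacb and Mlycd set malonyl-CoA, the former as the mitochondrial acetyl-CoA carboxylase that makes it and the latter as the decarboxylase that removes it. Acacb fell in all 3 comparisons, by 0.56 in EDL (4.29, 4.53 and 4.59 in wild type, 3.84, 4.12 and 3.79 in dmKO), by 0.65 in soleus of the ERRbeta/ERRgamma class and by 0.45 in soleus of the ERRalpha/ERRgamma class. The wild-type and dmKO libraries overlapped in the last of these (4.81, 5.23 and 5.27 against 4.84, 4.57 and 4.55), and its call was lost when any of 4 libraries was left out. Mlycd fell only in soleus of the ERRbeta/ERRgamma class, from 4.89, 4.51 and 4.87 to 3.77, 4.17 and 4.29 (-0.67 ± 0.14), and changed by -0.38 in EDL and -0.23 in soleus of the ERRalpha/ERRgamma class, neither called, although the former was after recentring, with the stricter filter and without dmKO library 2.

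In the carnitine shuttle, Cpt1b (chromosome 15, 89416405 to 89425862) fell most in EDL of the ERRalpha/ERRgamma class. Its wild-type libraries were 6.36, 6.64 and 6.51 and its dmKO libraries 5.34, 5.32 and 5.55, which leaves 46.6% of the wild-type signal (-1.10 ± 0.14, adjusted p = 1.03e-06). In ERRbeta/ERRgamma dmKO soleus it went from 7.64, 7.32 and 7.28 to 6.13, 6.98 and 6.93 (-0.73 ± 0.14), with the first dmKO library well below the other two. Without that library the change was -0.46. In soleus of the ERRalpha/ERRgamma class the libraries were 7.22, 7.43 and 7.39 against 7.01, 6.86 and 6.93, which did not overlap, and the change of -0.42 was not called (adjusted p = 0.0565).

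Cpt2 fell in all 3 comparisons, by 1.05 in EDL, 0.78 in soleus of the ERRbeta/ERRgamma class and 0.66 in soleus of the ERRalpha/ERRgamma class. Its EDL libraries went from 4.44, 4.67 and 4.66 to 3.54, 3.34 and 3.72, with no overlap. Crat fell in EDL alone of the 3 (6.30, 6.53 and 6.41 in wild type, 5.59, 5.70 and 5.90 in dmKO, -0.68 ± 0.10), and its soleus changes of -0.26 and -0.22 were not called. Cpt1a was called in none of the 6 knockout comparisons: in EDL of the ERRalpha/ERRgamma class its libraries of 0.72, 0.94 and 0.89 in wild type and 0.60, 0.74 and 1.53 in dmKO overlapped (0.11 ± 0.22, 95% interval -0.35 to 0.56).

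The acyl-CoA dehydrogenases for straight chains fell in ERRalpha/ERRgamma dmKO EDL. Acadl, the long-chain enzyme, went from 7.15, 7.33 and 7.38 to 5.41, 5.76 and 6.29, which leaves 36.2% (-1.47 ± 0.17). Acadvl, the very-long-chain enzyme (chromosome 11, 70010183 to 70015428), went from 7.22, 7.34 and 7.42 to 5.78, 5.85 and 6.23 (-1.37 ± 0.12), and Acads, the short-chain enzyme, from 5.01, 5.06 and 5.03 to 3.52, 3.77 and 4.04 (-1.26 ± 0.12). None of the 3 had overlapping libraries. Acadm, the medium-chain enzyme whose promoter is printed above, fell by 0.71 ± 0.13, from 7.14, 7.27 and 7.34 to 6.31, 6.48 and 6.84.

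In soleus these genes were again lower, with 1 exception. In the ERRbeta/ERRgamma class Acadm went from 8.46, 8.29 and 8.27 to 7.28, 7.94 and 7.63 (-0.72 ± 0.13), Acadl fell by 0.69 and Acadvl by 0.48, and Acads stood at -0.34, not called. In the ERRalpha/ERRgamma class Acadvl went from 8.11, 8.00 and 7.96 to 7.10, 7.18 and 7.33 (-0.82 ± 0.12), Acadl fell by 0.82, Acads by 0.66 and Acadm by 0.48. The differences of these changes between muscles were 0.23 to 0.65 for the 4 genes in the ERRalpha/ERRgamma class, none called.

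Among the other dehydrogenases, Acad11, which acts on very long and hydroxylated chains, fell in all 3 comparisons by 0.44 to 0.68. In soleus of the ERRbeta/ERRgamma class its libraries touched, with 4.50, 4.05 and 4.40 in wild type and 3.31, 4.08 and 3.73 in dmKO. Acad9 fell in EDL (-0.64) and in soleus (-0.33) of the ERRalpha/ERRgamma class, and Acad12 in soleus of the ERRbeta/ERRgamma class (-0.48). Acad10, which lies 2087 bases from Acad12 on chromosome 5, was called in no knockout comparison, and its SE of 0.31 was among the widest of the 34 genes.

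The later steps of the cycle fell in all 3 comparisons, apart from Hsd17b10 in EDL. Acaa2 (chromosome 18, 74779212 to 74806207) fell the most of the 34 genes in EDL: its wild-type libraries of 6.45, 6.69 and 6.82 went to 4.81, 4.83 and 5.22 in dmKO, which leaves 30.8% (-1.70 ± 0.13, adjusted p = 1.24e-11). In soleus it went from 7.93, 7.89 and 7.78 to 6.73, 6.95 and 6.83 in the ERRbeta/ERRgamma class (-1.03 ± 0.13, 49.0% left) and from 7.79, 7.88 and 7.71 to 6.29, 6.54 and 6.83 in the ERRalpha/ERRgamma class (-1.24 ± 0.13, 42.3% left). The groups did not overlap in any of the 3.

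Echs1 (chromosome 7, 140105710 to 140116421), the short-chain hydratase, had the next largest fall of these later steps in EDL, from 5.76, 6.15 and 6.04 to 4.82, 4.46 and 4.48 (-1.40 ± 0.11). In soleus it went from 6.47, 6.72 and 6.54 to 5.39, 5.55 and 5.67 in the ERRalpha/ERRgamma class (-1.04 ± 0.11) and from 6.72, 6.58 and 6.81 to 5.99, 6.29 and 6.25 in the ERRbeta/ERRgamma class (-0.53 ± 0.11). Each of these pairs of groups was apart.

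Hadha and Hadhb encode the alpha and beta subunits of the trifunctional protein, which carries long chains through the last 3 steps. In EDL Hadha went from 6.28, 6.59 and 6.56 to 5.19, 5.37 and 5.56 (-1.10 ± 0.15) and Hadhb from 6.29, 6.49 and 6.41 to 5.16, 5.37 and 5.59 (-1.02 ± 0.14). In soleus the changes of the pair were -0.71 and -0.91 in the ERRbeta/ERRgamma class and -0.68 and -0.76 in the ERRalpha/ERRgamma class, each with an SE of 0.14 to 0.15. Hadh, the dehydrogenase for shorter hydroxyacyl chains, fell by 0.80, 0.73 and 0.86 in the 3 comparisons. Hsd17b10, which acts mainly on branched-chain and steroid substrates, fell by 0.29 and 0.28 in the 2 soleus comparisons and changed by -0.16 in EDL, not called.

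Eci1, Eci2 and Decr1 deal with double bonds, as isomerases and as the 2,4-dienoyl-CoA reductase, and all 3 fell in all 3 comparisons. Decr1 went from 6.71, 6.60 and 6.49 to 5.41, 5.65 and 5.95 in soleus of the ERRalpha/ERRgamma class (-0.93 ± 0.13) and fell by 0.82 in the ERRbeta/ERRgamma class and by 0.74 in EDL. Eci1 fell most in EDL (-0.91 ± 0.12) and Eci2 least there (-0.43 ± 0.13). The Eci2 call in EDL was lost when any of 4 libraries was left out.

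The electron transfer flavoprotein and its dehydrogenase hand electrons to ubiquinone. Etfa (chromosome 9, 55454436 to 55512243), its alpha subunit, went in EDL of the ERRalpha/ERRgamma class from 7.18, 7.39 and 7.28 to 5.97, 5.95 and 6.10 (-1.28 ± 0.10, 41.2% left). Etfb, the beta subunit of the same dimer, fell less there, from 7.68, 7.70 and 7.76 to 7.08, 7.15 and 7.30 (-0.54 ± 0.09), and Etfdh, the dehydrogenase, went from 6.01, 6.27 and 6.29 to 4.87, 4.84 and 5.08 (-1.26 ± 0.13). In soleus of that class the 3 genes fell by 0.64, 0.67 and 0.80, in the order Etfa, Etfb and Etfdh, and in the ERRbeta/ERRgamma class by 0.50, 0.40 and 0.75. The difference between the 2 subunits of the dimer was not tested.

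The thioesterases release the free acid from acyl-CoA. Acot13 fell in all 3 comparisons, most in EDL, where 6.41, 6.56 and 6.61 in wild type went to 5.71, 5.57 and 5.48 (-0.94 ± 0.10). Acot2 varied more between libraries than any other of the 34 genes, with an SE of 0.44. It fell in soleus of the ERRbeta/ERRgamma class, from 5.50, 3.71 and 4.39 to 1.97, 3.06 and 2.97 (-1.86 ± 0.44, adjusted p = 0.0082), and its changes of -1.18 in EDL and -1.10 in soleus of the ERRalpha/ERRgamma class were not called although the libraries did not overlap. They were called without dmKO library 3 (-1.47 and -1.52), and in EDL also without dmKO library 2. Acot2 has a near-identical neighbour, Acot1, and reads may be split between them.

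**Figure D3:**
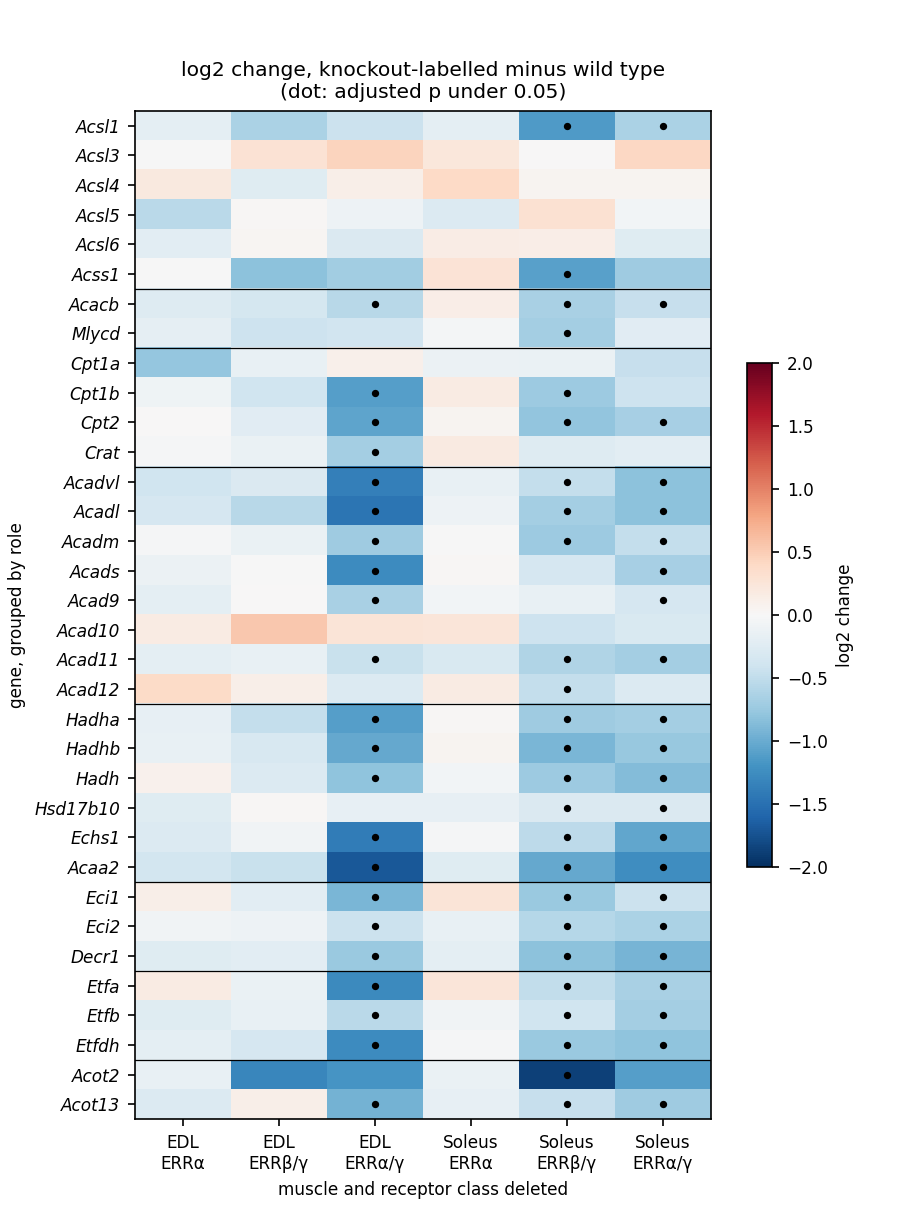
Log2 change (colour, knockout-labelled minus wild type) of the 34 genes, grouped by role (rows), in the 6 comparisons (columns); a dot marks an adjusted p under 0.05 by limma. Apart from Hsd17b10, every row of the cycle's later steps, the isomerases and the electron transfer flavoprotein holds 3 dots, and no dot stands in the rows of Acsl3, Acsl4, Acsl5, Acsl6, Cpt1a and Acad10.

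**Figure D4:**
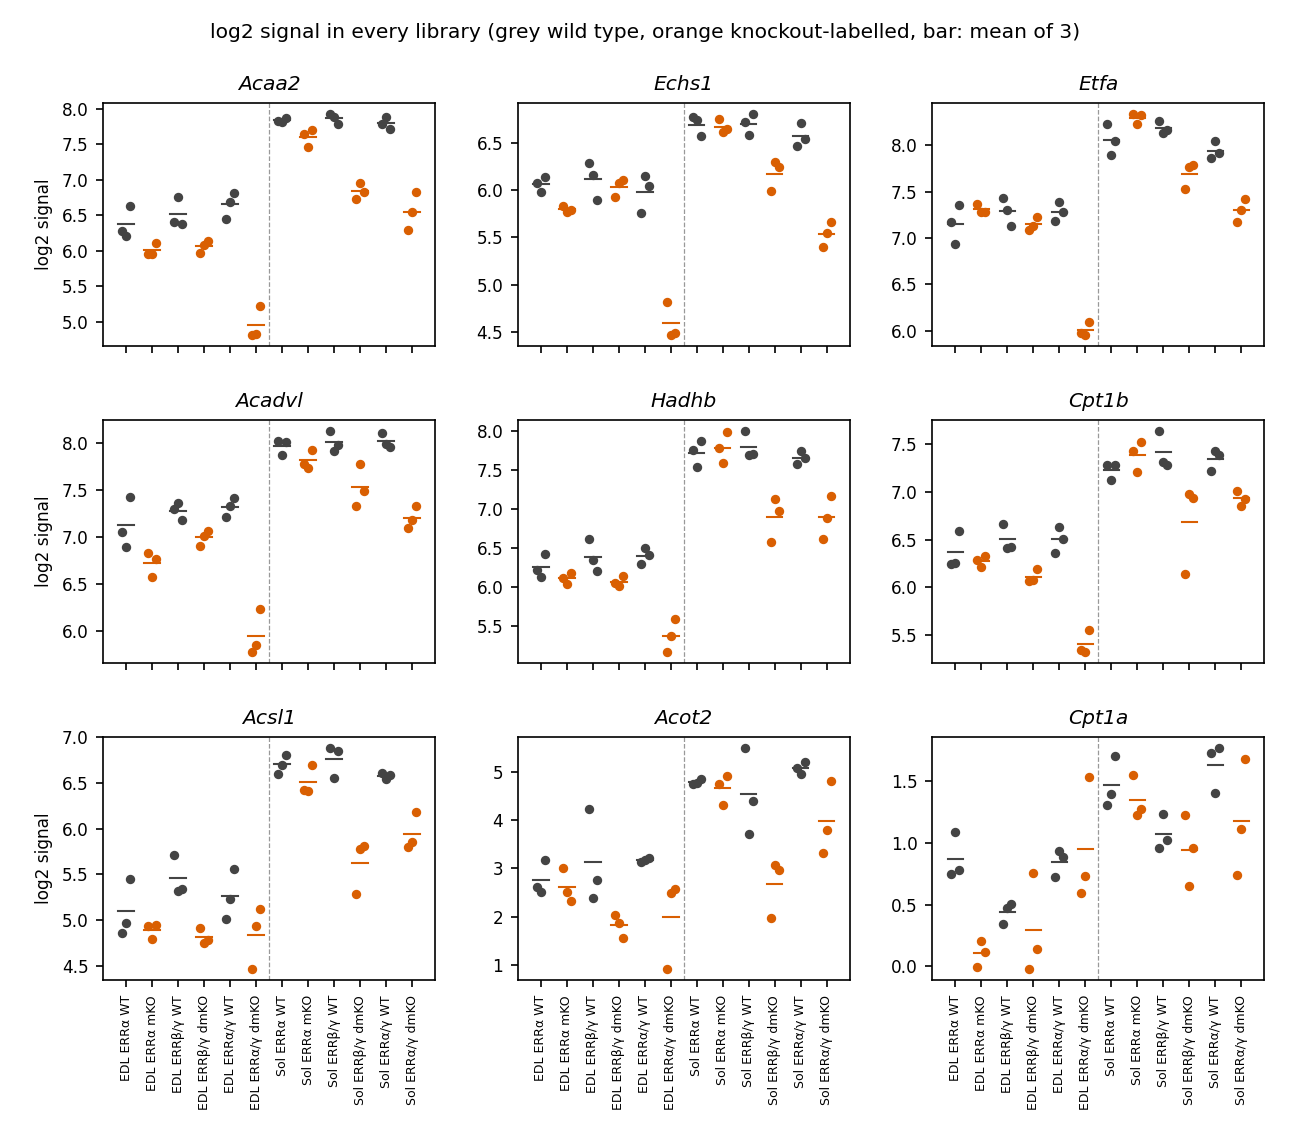
Log2 signal (vertical axis, quantile normalized by the authors) of 9 of the genes in each of the 36 libraries; points are libraries and bars the mean of 3. For Acaa2, Echs1, Etfa, Acadvl and Hadhb, the dmKO libraries of the ERRalpha/ERRgamma class lie below their wild-type libraries in both muscles, whereas those of Cpt1a overlap in both.

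In the other 3 comparisons no gene of the pathway was called. In EDL of the ERRalpha class 0 of the 34 genes passed (3.39% of all genes called), and the median change was -0.17. Of the 34, 11 were at an unadjusted p under 0.05, 10 of them lower, against 1958 of 13002 genes either way. The lowest adjusted p was that of Cpt1a, at 0.0528. Its libraries went from 0.75, 1.09 and 0.78 to -0.01, 0.21 and 0.11, which did not overlap (-0.77 ± 0.22). For 14 genes all mKO libraries lay below all wild-type libraries (9.42% of all genes), among them Acaa2, with 6.27, 6.21 and 6.63 in wild type and 5.96, 5.96 and 6.11 in mKO (-0.36, 95% interval -0.62 to -0.10). Etfa was at 0.16, with an interval of -0.04 to 0.36.

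ERRbeta/ERRgamma dmKO EDL had 0 calls among the 34 genes, against 0.214% of all genes. Of the 34, 13 were at an unadjusted p under 0.05, all lower, against 945 of 13091 genes either way. Without overlap on the lower side were 18 genes (5.25% of all genes) and on the higher side 0 (10.2%). Acsl1 went from 5.71, 5.32 and 5.34 to 4.91, 4.75 and 4.79 (-0.64 ± 0.17, adjusted p = 0.14), and Acot2 from 4.24, 2.40 and 2.76 to 2.04, 1.87 and 1.57 (-1.30 ± 0.44). Acaa2 was at -0.45 (95% interval -0.71 to -0.19) and Acadm at -0.13 (-0.40 to 0.14).

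In soleus of the ERRalpha class 0 of the 34 passed (0.719% of all genes called), and the median change was -0.02. Of the 34, 4 were at an unadjusted p under 0.05, near the share of all genes (1433 of 13210). Of these 4, 1 was lower and the others were higher. Acaa2 went from 7.83, 7.81 and 7.87 to 7.64, 7.45 and 7.70, which did not overlap (-0.24, 95% interval -0.50 to 0.02). Acadm was at 0.00 with an interval of -0.27 to 0.27, and Cpt1b at 0.16 (-0.14 to 0.46). Acad11 and Acot13 were the other genes with all mKO libraries below wild type (8.99% of all genes), and Acsl3 and Eci1 the 2 with all above (7.48%).

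Because a call in one class and none in another is no test, the changes were compared directly. Within EDL, 18 of the 34 genes had a lower change in the ERRalpha/ERRgamma class than in the ERRalpha class and 0 a higher one (4.98% of all genes called, 3.61% lower). Etfa differed by -1.43 ± 0.14 and Acaa2 by -1.33 ± 0.18, and Cpt1b, Cpt2, Acadl, Acads, Echs1, Eci1 and Etfdh, also called, each by more than 1. Against the ERRbeta/ERRgamma class 14 had a lower change and 0 a higher one (7.16% of all genes called, 4.19% lower), with Echs1 at -1.32 ± 0.15 and Acot13 at -1.07 ± 0.13. These 2 comparisons share the ERRalpha/ERRgamma libraries. Between the ERRbeta/ERRgamma and ERRalpha classes 0 genes differed (0.451% of all genes called). An unadjusted p under 0.05 was reached by 6, against 1126 of 12873 genes.

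In soleus, 14 of the 34 genes had a lower change in the ERRalpha/ERRgamma class than in the ERRalpha class (4.88% of all genes called, 2.98% lower), with Echs1 at -1.02 ± 0.15, Acaa2 at -1.0 ± 0.18 and Etfa at -0.88 ± 0.14. Without the first dmKO library of the ERRalpha/ERRgamma class the count was 8. The ERRbeta/ERRgamma class had a lower change than the ERRalpha class for 7 genes (0.678% of all genes called, 0.541% lower): Cpt1b, Cpt2, Hadhb, Hadh, Acaa2, Eci1 and Etfa, by 0.69 to 0.99. That count was 0 when only these libraries were fitted, 3 without the intensity trend of limma, and 2 to 19 with single libraries left out. The 2 classes named for ERRgamma differed in soleus for 0 genes (1.22% of all genes called), and the difference for Acaa2 was -0.21 ± 0.18. An unadjusted p under 0.05 was reached by 5, near the share of all genes (1578 of 13189).

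Between muscles, the change of the ERRalpha/ERRgamma class differed for 1 gene of the 34 (2.08% of all genes called, 1.52% with the smaller fall or larger rise in soleus). Etfa fell by 1.28 in EDL and by 0.64 in soleus, a difference of 0.63 ± 0.14 (adjusted p = 0.00738). At an unadjusted p under 0.05 there were 13 genes, all with the smaller fall in soleus, against 1365 of 13125 genes either way. Leaving out the third EDL dmKO library brought in Crat, Acadvl, Acadl and Acads. In the ERRbeta/ERRgamma class 0 genes differed between muscles (0.208% of all genes called), and 8 were called without the second soleus dmKO library. An unadjusted p under 0.05 was reached by 17, all lower in soleus, against 1563 of 13002 genes either way. In the ERRalpha class 0 differed (0.0155% of all genes called), with 2 at an unadjusted p under 0.05, against 946 of 12877 genes.

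**Figure D5:**
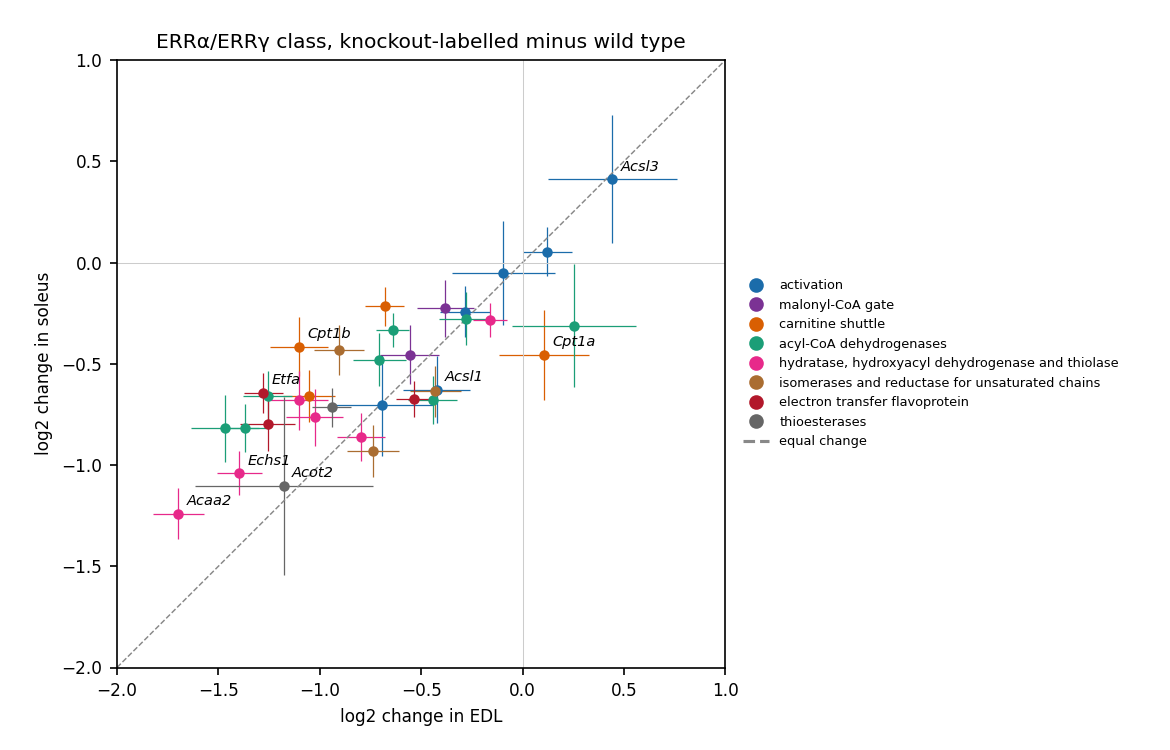
Log2 change ± SE of the 34 genes in EDL (horizontal axis) and soleus (vertical axis) of the ERRalpha/ERRgamma class, knockout-labelled minus wild type; colours give the role and the dashed line marks equal change. Most genes with a large change lie above the line, and Etfa (-1.28 in EDL, -0.64 in soleus) is the one whose difference passed the test.

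Genes around the pathway were examined in 7 further lists. Of 11 genes for uptake, binding and lipolysis, 8 fell in ERRalpha/ERRgamma dmKO EDL, where 7.02% of all genes fell, led by the lipid droplet protein Plin5 (-1.71), the heart and muscle fatty acid binding protein Fabp3 (-1.55) and lipoprotein lipase, Lpl (-1.47). In soleus 6 fell in the ERRbeta/ERRgamma class (3.58% of all genes) and 5 in the ERRalpha/ERRgamma class (5.91%), with Fabp3 at -1.44 in each. Lpl also fell in ERRbeta/ERRgamma dmKO EDL (-1.11). In wild-type muscle 10 of the 11 were higher in soleus, against 31.4% of all genes. The same shares of all genes stand behind the counts of the other lists.

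Of the tested genes for other activation and thioesterase steps, 6 of 13 fell in ERRalpha/ERRgamma dmKO EDL, with the cytosolic thioesterase Acot1 at -2.72, and 6 of 14 in soleus of each class named for ERRgamma, with Acot1 at -4.13 in the ERRbeta/ERRgamma class. From the list for peroxisomes, which shorten very long chains, 5 of 16 genes fell in EDL and 5 of 17 and 4 of 17 in those soleus comparisons. The dienoyl-CoA isomerase Ech1 of that list was at -0.95, -0.99 and -1.12, and its place in the cell was not measured. Of 7 genes of carnitine supply, Slc25a20, the carnitine-acylcarnitine carrier of the inner membrane, fell in each of the 3 (-0.47, -0.68 and -0.74).

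On the electron side, 7 of 9 partner genes fell in ERRalpha/ERRgamma dmKO EDL and 6 of 9 in its soleus, led by the ubiquinone synthesis genes Coq9 (-1.64 in EDL), Coq5 and Coq7, against 2 of 9 in soleus of the ERRbeta/ERRgamma class. Of 14 regulators, Ppara, a nuclear receptor for fatty acids, fell by 1.64 in ERRalpha/ERRgamma dmKO EDL, by 0.75 in ERRbeta/ERRgamma dmKO soleus and by 1.06 in ERRalpha/ERRgamma dmKO soleus. Ppargc1a, the coactivator PGC-1alpha, rose by 1.56 in soleus of the ERRalpha/ERRgamma class. Of 11 genes of malonyl-CoA synthesis and AMP-activated kinase, 2 rose and 1 fell in EDL of that class, with the kinase subunit Prkag2 at 0.79. Over all 13207 genes tested there, 1490 rose and 927 fell, and these small counts are near those shares.

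Markers of fibre type and of other cells were read beside these changes. In EDL of the ERRalpha/ERRgamma class 5 of 7 slow-fibre markers were higher, with the slow myosin Myh7 at 3.55, and their summed log2 level of 4.48 to 7.12 in dmKO overlapped 4.46 to 6.41 in wild type. These higher markers stood beside the fall of the pathway there, and the part of fibre type in it was not tested. In EDL of the ERRbeta/ERRgamma class, Myl2 and Myl3, among the 7 slow-fibre markers, were lower by 4.21 and 2.67, where 0.214% of all genes were called. The other markers of that list are not given singly there. The summed slow-fibre level of 4.04 to 5.16 in dmKO lay below 6.42 to 6.59 in wild type. In both soleus comparisons 0 of 7 slow-fibre markers were called. The summed fast-fibre level of soleus in the ERRbeta/ERRgamma class was 14.10 to 14.16 in dmKO, above 13.60 to 14.06 in wild type, and 1 of 8 fast-fibre markers was higher, the myosin light chain Mylpf (0.80). In the ERRalpha/ERRgamma class that level overlapped, at 13.82 to 14.15 against 13.73 to 13.99, with Actn3 higher and Tnnt3 lower. The part of fibre type in the lower signals of soleus was not tested.

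Of 7 fat, 6 fibroblast and 5 leukocyte markers tested, 0 were called in any knockout comparison. For endothelium only the summed level is given here. In EDL of the ERRalpha class it was 5.13 to 5.29 in mKO against 5.34 to 5.60 in wild type. Apart from that comparison and soleus of the ERRalpha/ERRgamma class, the endothelial levels overlapped. In soleus of the ERRalpha/ERRgamma class the summed fibroblast level was 8.77 to 9.02 against 7.77 to 8.77 in wild type, the leukocyte level 3.51 to 3.78 against 2.39 to 3.47, and the endothelial level 6.00 to 6.23 against 6.33 to 6.34. Their part in the lower signals there was not tested. Acta1 and the other defining myofibre markers were present in all libraries, and the summed myofibre level in that comparison was 14.6 to 14.7 in dmKO and 14.8 to 14.9 in wild type.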

How the data were processed

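Messenger RNA was measured in soleus and EDL, with 3 biological replicates per group per the series design. Per the labels' protocols, the libraries were strand-specific and started from 400 ng of RNA, amplified for 10 cycles. Per the file's name, the authors log transformed and quantile normalized the deposited signals, which the values show to be on a log2 scale. Partek 6.6 and the builds GRCm38.p6 and mm10 are named in the submitters' processing notes. How reads were aligned and counted, and what unit was logged, is not given in the sources used here. Quantile normalization removes read totals, so depth and intervals from counting are not available.

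The group of a column was read from its name, which gives the muscle, class letters and Cre mark (FXp read as knockout, FX- as wild type). EDL columns of the ERRalpha class have no class letter and were assigned by the animal number they share with soleus columns. Library numbers are names only. Of 22 animals, 14 gave both muscles, so same-animal libraries are paired by the number in the column names. Over these 14 pairs the correlation of deviations from the group means was -0.07 to 0.32, over 0.1 in 7, and higher with the own animal than with others in 12.

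Of 45802 rows, 27904 held no value and 25 rows with symbols turned into dates were left out. A gene was kept where its mean, counting an empty cell as the table's lowest value (-8.21), was above the 25th percentile of all gene means (-5.24). A single model of the 36 libraries was fitted with limma 3.58.1 (R 4.3.3), with a mean for each group and a variance trend over intensity, and gave 16 contrasts, on genes with at least 2 values per group. Calls were made at an adjusted p under 0.05 (Benjamini-Hochberg, over all genes of the contrast). Intervals are 95%. On simulated data for EDL of the ERRalpha/ERRgamma class (13404 genes), 27 of 100 genes changed by 0.5 and 67 of 100 changed by 1 on the log2 scale were recovered, with 6 false calls. No other genes were changed, and the noise was normal and independent between libraries. In the real comparison 18.3% of all genes were called, so these recovery rates need not hold there.

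Members and lists were chosen with earlier results of these data known. Every member is described by role, and from each pathway list at most 3 called genes with the largest absolute change are named per comparison. Further marker lists, for smooth muscle, red blood cells and Schwann cells, had 0 genes called in the knockout comparisons. Alternatives were a fit of only the groups compared, recentred libraries, no filter, a filter at the 50th percentile, missing values at the lowest value, a pseudocount of 1, no intensity trend, the animal as a block, and each library left out. Promoters are from RefSeq on GRCm38.p6.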

Additional observations from a re-analysis of the deposited data

Results flagged for a closer look

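The change of Etfa, the alpha subunit of the electron transfer flavoprotein, differed between muscles in the ERRalpha/ERRgamma class by a test of the difference itself. The change was 0.63 higher in soleus than in EDL on the log2 scale (limma, adjusted p = 0.00738). Etfa was the 1 gene of the 34 called (2.94%), which is near the 2.08% of all genes called. All 3 dmKO libraries lay below all 3 wild-type libraries in each muscle. The difference was called under each of the 20 alternative settings run.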

How the results depend on the processing

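Of 155 results for single genes, 103 kept their call in every alternative run and 0 changed direction. In EDL of the ERRalpha/ERRgamma class 21 of 22 genes were called under every setting, in its soleus 16 of 22, and in soleus of the ERRbeta/ERRgamma class 1 of 25. In that last comparison a fit of only the groups compared gave 1 call, and leaving out single libraries gave 18 (without dmKO library 1) to 29 (without dmKO library 2, adding Crat, Acads and Acad9 as lower and Acsl5 as higher). Calls were also gained in the ERRalpha/ERRgamma class. In EDL, Acsl1, Acss1 and Mlycd were added by recentring, Acss1, Mlycd and Acot2 by the stricter filter, and these genes and Acsl3 (higher) by leaving out wild-type library 1 or dmKO library 2 or 3. In soleus, Acss1 and Cpt1b were added by recentring and by the stricter filter, Acss1 by the pseudocount and without wild-type library 1, Cpt1b by a fit of only the groups compared, and Cpt1a and Acot2 without dmKO library 3. The 6 soleus calls of that class lost under some setting were Acsl1, Acacb, Acadm, Acad9, Hsd17b10 and Eci1, with Eci1 at -0.27 without dmKO library 1. Acad12 in soleus of the ERRbeta/ERRgamma class was at -0.29 without dmKO library 1. In EDL of the ERRalpha class, recentring and the stricter filter each called 1 gene, Cpt1a, and leaving out libraries 0 to 1, the 1 being Acadvl without wild-type library 2.

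For the difference between muscles in the ERRbeta/ERRgamma class, the stricter filter, the pseudocount and the replicate block by animal each called 1 gene, Acot13, and leaving out libraries gave 0 to 8. In the ERRalpha/ERRgamma class, a fit of only the groups compared gave 2 (Cpt1b added), the replicate block 2 (Acads added), and leaving out libraries 1 to 5. The block by animal changed no other count, including the 32 calls between wild-type muscles. Leaving out libraries gave 8 to 15 for the soleus difference between the ERRalpha/ERRgamma and ERRalpha classes, 0 to 1 between the 2 classes named for ERRgamma (Echs1), and 2 to 19 between the ERRbeta/ERRgamma and ERRalpha classes, where only the groups compared gave 0 and no trend gave 3.

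Recentring moved the split of all called genes from 1490 higher and 927 lower to 1010 and 1052 in ERRalpha/ERRgamma dmKO EDL, from 916 and 785 to 552 and 912 in its soleus, and from 424 and 474 to 308 and 607 in soleus of the ERRbeta/ERRgamma class. The medians of the 34 genes were then -0.76, -0.71 and -0.64. The cause was not tested. Depth is unknown, which limits statements on the genes at low signal, such as Cpt1a and Acad10.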
